A study of Mus musculus with 6 samples.

Results

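The T cell receptor variable (V) segments were examined in CD4+ T cells of the mouse spleen. All symbols beginning with Trav (alpha chain) or Trbv (beta chain) were taken, apart from Trav11 and Trav11d, and entries that repeated a symbol were summed. This gave 130 segments, 107 Trav and 23 Trbv, out of 38216 symbols in the table. The rule used no measured value. The RNA came from C57BL/6 mice on postnatal day 28, and every mouse carried the IL21-VFP reporter, in which the fluorescent protein VFP reports the cytokine gene Il21. Sorting CD4+ cells by VFP and by ICOS, a costimulatory receptor, gave 3 pools of 2 libraries each: VFP-ICOS- (labelled N), VFP-ICOS+ (labelled ACT) and VFP+ICOS+ (labelled ACT IL21, written ACT_IL21 here). A pool is a sorted mixture, and the labels do not say whether its 2 libraries came from separate animals, so p-values here reflect library-to-library spread alone, possibly technical.

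A T cell receptor alpha chain is made by joining 1 V segment to a J segment in front of the constant exons of Trac, and a beta chain by joining a V, a D and a J segment in front of Trbc1 or Trbc2. The V segment encodes most of the variable domain, including the loops that touch the MHC molecule, and a conventional CD4+ population uses many V segments at once. Innate-like T cells use few: invariant NKT cells pair an alpha chain made from Trav11 or its copy with beta chains made from Trbv13-2 (Vβ8.2), Trbv29 (Vβ7) or Trbv1 (Vβ2), and MAIT cells use Trav1 with Trbv19 or Trbv13-3. The alpha locus of this strain holds duplicated blocks, whose segments carry the letter d or n in their symbols and can be near-identical to a segment without a letter.

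All 130 segments were found in the GENCODE M21 annotation of GRCm38, the build named in the submitters' processing notes. The Trav segments spanned chr14:52427928-53876752 and the Trbv segments chr6:40891229-41558452, with Trbv31 alone on the minus strand. Both chains had 20 families, and 7 Trav segments and 1 Trbv segment (Trbv10) were annotated as pseudogenes. Among the Trav symbols 45 had no letter, 34 had a d and 28 had an n, and 10 symbols carried a dv, which marks segments that can also join the delta chain. Setting the letter and the dv aside, 34 groups of copies held 93 segments.

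The 3 segments of the Trbv13 family and Trbv29 are shown first, as the last 120 bases of the V exon. These bases end at the joining site and encode the start of the third antigen-contact loop. Among these segments, only Trbv29 passed the threshold on usage described below. The sequences are those of the GENCODE M21 transcripts, on the plus strand. In the Trbv13 lines, capitals mark bases that differ from Trbv13-2. Trbv29 is from another family and is not aligned to them. Trbv13-2 lies at chr6:41121713-41121832, Trbv13-1 at chr6:41116349-41116468, Trbv13-3 at chr6:41130466-41130585 and Trbv29 at chr6:41271762-41271881.
Trbv13-2: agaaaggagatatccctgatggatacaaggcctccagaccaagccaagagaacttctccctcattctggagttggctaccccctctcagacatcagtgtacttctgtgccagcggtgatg
Trbv13-1: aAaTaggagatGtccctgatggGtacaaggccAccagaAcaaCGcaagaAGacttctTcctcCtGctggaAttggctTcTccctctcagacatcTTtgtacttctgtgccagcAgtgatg
Trbv13-3: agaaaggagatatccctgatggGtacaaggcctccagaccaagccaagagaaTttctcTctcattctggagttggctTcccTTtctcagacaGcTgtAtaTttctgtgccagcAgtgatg
Trbv29: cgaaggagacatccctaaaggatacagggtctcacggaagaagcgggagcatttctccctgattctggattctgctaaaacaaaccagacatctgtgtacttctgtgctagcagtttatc
In this window Trbv13-1 differed from Trbv13-2 at 19 bases and Trbv13-3 at 11. Over the whole transcript, Trbv13-2 was 88.7% identical to Trbv13-1 and 90.6% identical to Trbv13-3.

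The alpha copies show how alike segments can be, which bears on how far their values can be told apart. Capitals mark bases that differ from Trav6-6 in the first 3 lines and from Trav14d-2 in the last 3. The windows are chr14:53517247-53517366 for Trav6-6, chr14:52822240-52822359 for Trav6d-6, chr14:53133018-53133137 for Trav6n-6, chr14:52949050-52949169 for Trav14d-2, chr14:53260060-53260179 for Trav14n-2 and chr14:53641106-53641225 for Trav14-2.
Trav6-6: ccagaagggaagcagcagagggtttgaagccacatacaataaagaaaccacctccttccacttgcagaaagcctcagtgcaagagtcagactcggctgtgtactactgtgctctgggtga
Trav6d-6: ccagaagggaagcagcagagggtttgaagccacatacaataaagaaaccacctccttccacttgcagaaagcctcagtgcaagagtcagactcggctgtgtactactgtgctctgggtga
Trav6n-6: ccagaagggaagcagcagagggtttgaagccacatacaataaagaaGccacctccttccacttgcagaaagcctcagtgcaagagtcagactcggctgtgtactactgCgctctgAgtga
Trav14d-2: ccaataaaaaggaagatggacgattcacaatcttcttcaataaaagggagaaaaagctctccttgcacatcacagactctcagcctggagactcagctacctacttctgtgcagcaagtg
Trav14n-2: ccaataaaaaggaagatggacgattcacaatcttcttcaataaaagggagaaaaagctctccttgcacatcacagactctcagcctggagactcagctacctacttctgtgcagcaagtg
Trav14-2: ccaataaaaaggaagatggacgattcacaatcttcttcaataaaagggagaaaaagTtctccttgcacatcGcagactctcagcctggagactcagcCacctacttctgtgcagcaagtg
Trav6-6 and Trav6d-6 were identical over their whole transcripts, as were Trav14d-2 and Trav14n-2. Trav6n-6 differed from Trav6-6 at 9 of 344 aligned bases, and Trav14-2 from Trav14d-2 at 9 of 387. Of 84 pairs of copies, 14 had identical transcripts. Leaving aside a pair at 0 throughout, 12 pairs were listed with the same TPM in every library. RSEM, the program the submitters named, divides reads that match several genes by estimation, so the values of copies are uncertain one by one and sums over a group of copies are given for those segments past the threshold on TPM or usage that have copies.

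The measure is TPM, the transcript abundance per length scaled to a fixed total in each library. It keeps no record of read number, so the depth behind each value is unknown. Usage below is a segment's percentage of the summed Trav or summed Trbv TPM of its library. It is a share of RNA, and in sorted bulk cells fewer cells with a segment and less of its RNA per cell cannot be told apart. The table gives alpha and beta segments separately, so which alpha paired with which beta was not measured. Of the 130 segments, 118 (97 Trav and 21 Trbv) had at least 1 TPM in at least 2 libraries and were tested. A segment can pass that filter through 1 pool alone. The 12 others were Trav5d-3, Trav5n-3, Trav6d-3, Trav6n-5, Trav13d-3, Trav13d-4, Trav13n-3, Trav15n-1, Trav18, Trav20, Trbv10 and Trbv21, and 4 of them (Trav5d-3, Trav5n-3, Trav6n-5 and Trav18) were listed at 0 in all 6 libraries. In all, 36 segments were listed at 0 in at least 1 library.

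The 6 CD4 T cell markers summed to between 3108 and 4710 TPM in every library. Of the 2 CD8 T cell markers, Cd8a did not exceed 0.36 TPM, while Cd8b1 was at 26.7 and 18.7 TPM in N, 5.59 and 7.41 in ACT, and 9.80 and 3.41 in ACT_IL21, highest in N (limma adjusted p = 0.0970 for ACT and 0.0863 for ACT_IL21 against N). The 4 B cell and 5 myeloid markers summed to at most 2.6 and 3.17 TPM. The pools differed in markers of other T cell subsets. The 6 natural killer and NKT cell markers summed to 44.1 and 47.4 TPM in N, 501 and 527 in ACT and 51.9 and 62.9 in ACT_IL21. Klrb1c, the gene of the NK1.1 antigen, was at 2.56 and 2.38, 166 and 177, and 25.5 and 25.7 TPM in the same order. Zbtb16, the PLZF factor of innate-like T cells, was listed at 0 and 0.18, 40.05 and 27.3, and 5.91 and 1.7 TPM. Klrd1 of the same list went the other way between N and ACT_IL21, at 33.3 and 38.0, 88.5 and 85.9, and 6.42 and 13.9 TPM. In ACT_IL21 against N, 1 of 5 tested markers of this list was higher (Klrb1c) and 1 lower (Klrd1) by limma. The 3 regulatory T cell markers summed to 87.1 and 112 TPM in N, 362 and 388 in ACT and 93.8 and 101 in ACT_IL21. In ACT_IL21 against N, 1 of the 3 was higher and 2 were lower by limma. Ikzf2 was at 18.9 and 28.8 TPM in N and 85.1 and 90.2 in ACT_IL21, whereas Foxp3 was at 22.2 and 19.4 and at 1.57 and 2.69, and Il2ra at 46.1 and 64.2 and at 7.16 and 8.48. The 3 MAIT cell markers summed to 59.1 and 74.7, 216 and 216, and 142 and 140. In the comparison of ACT with N by limma, 3 of 5 tested natural killer and NKT markers were past the threshold and higher in ACT. So were 3 of 3 regulatory T cell markers and 2 of 3 MAIT markers. Zbtb16 is on both the natural killer and NKT list and the MAIT list, so these counts are not separate. Mr1 of the MAIT list did not pass (limma adjusted p = 0.618). These markers moved with the pools in the results that follow, and their part in those results was not tested.

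The chain totals differed between pools on the alpha side. Summed Trav TPM was 1643 and 1485 in N, 1055 and 933 in ACT, and 2072 and 2100 in ACT_IL21. The ACT pool lay below both other pools without overlap, with means ± SD of 1564 ± 112, 994 ± 86.6 and 2086 ± 20.1 TPM (n = 2 libraries each). Trac, the alpha constant gene, did not follow the same order: it was at 1554 and 1469 TPM in N, 2491 and 1945 in ACT, and 2286 and 2481 in ACT_IL21. The ratio of summed Trav to Trac was therefore 1.06 and 1.01 in N, 0.424 and 0.480 in ACT, and 0.907 and 0.846 in ACT_IL21.

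Trav11 and Trav11d, the excluded pair, summed to 19.5 and 6.73 TPM in N, 868 and 584 in ACT, and 51.4 and 34.6 in ACT_IL21. With the pair added, the alpha total was 1662 and 1491 in N, 1923 and 1516 in ACT, and 2123 and 2135 in ACT_IL21, and ACT no longer lay below N. The ratio to Trac was then 1.07 and 1.02, 0.772 and 0.780, and 0.929 and 0.861. Summed Trbv was 737 and 673 TPM in N, 601 and 540 in ACT, and 759 and 672 in ACT_IL21, with ACT again below both. The ratio of summed Trbv to the summed constant genes Trbc1 and Trbc2 was 0.164 and 0.193 in N, 0.124 and 0.157 in ACT, and 0.155 and 0.134 in ACT_IL21. Both N libraries lay above the 4 others, and ACT and ACT_IL21 overlapped. With 2 libraries a pool, an exact permutation test of such a value cannot give a two-sided p below 0.333, so none was run.

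**Figure D1:**
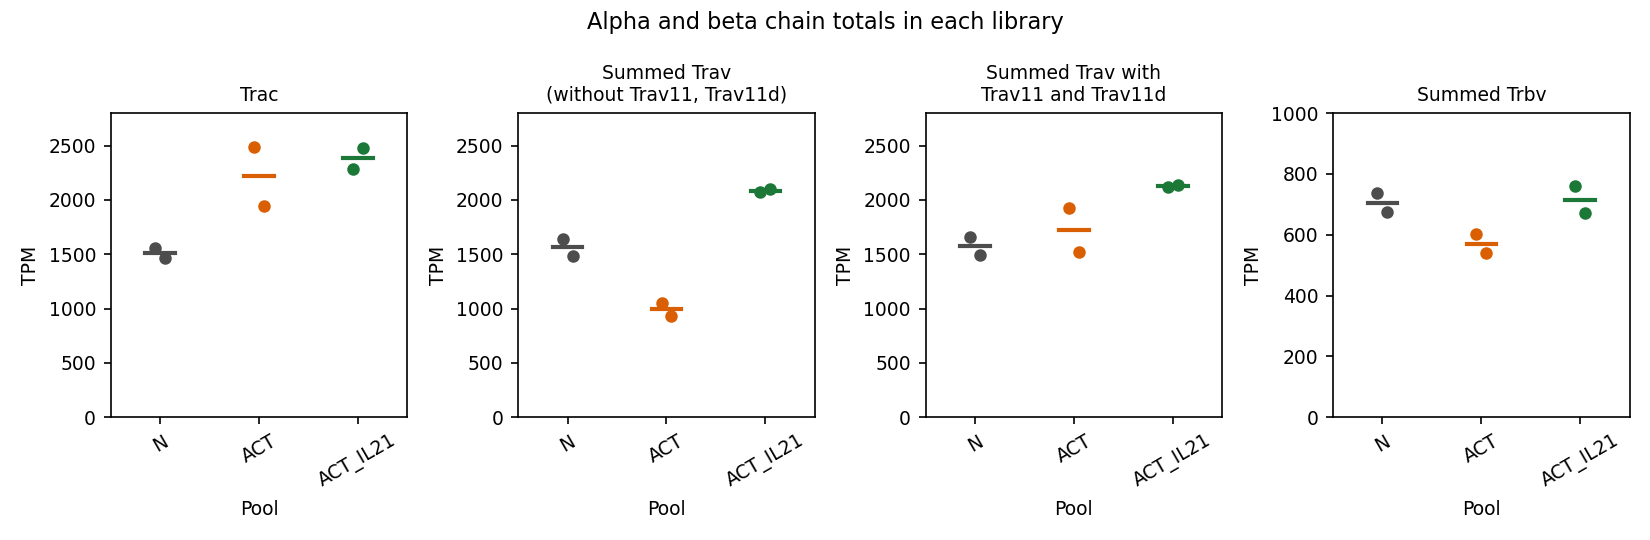
TPM (y axis) of Trac, summed Trav without and with Trav11 and Trav11d, and summed Trbv in the N, ACT and ACT_IL21 pools (x axis). Points are libraries and lines are means of 2. The ACT libraries, at 1055 and 933 TPM, lie below the others for summed Trav, and overlap the N range once Trav11 and Trav11d are added.

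Of the 21 tested beta segments, Trbv29 alone passed the limma threshold on usage. This segment, which encodes Vβ7, was at 13.6 and 16.6 TPM in N, 47.7 and 30.3 in ACT, and 11.5 and 9.62 in ACT_IL21. Its usage was 1.84% and 2.47% of the beta chain in N, 7.94% and 5.61% in ACT, and 1.52% and 1.43% in ACT_IL21. Both ACT libraries were above all 4 others, and the ACT_IL21 libraries were below all others. In the limma fit on usage, Trbv29 rose in ACT over N with a log2 fold change of 1.58 ± 0.29 (SE, adjusted p = 0.0197). It fell by 2.07 ± 0.29 on the log2 scale in ACT_IL21 against ACT (SE, limma adjusted p = 0.0146), and these comparisons share the ACT libraries. ACT_IL21 against N was -0.49 (limma adjusted p = 0.433). On TPM, without scaling to the chain total, the values were 1.28 (limma adjusted p = 0.0531) for ACT against N and -1.76 (0.0303) for ACT_IL21 against ACT.

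Each Trbv29 call was lost on leaving out any of several libraries, while the direction held. Over the 6 fits that left out 1 library, usage ranged from 1.34 to 1.83 for ACT against N. For ACT_IL21 against ACT it ranged from -2.32 to -1.83. For ACT against N, usage gave 1.34 without ACT replicate 1 (limma adjusted p = 0.0783), 1.38 without N replicate 1 (0.170) and 1.78 without N replicate 2 (0.0840). For ACT_IL21 against ACT it gave -1.83 without ACT replicate 1 (0.0583), -2.11 without ACT_IL21 replicate 1 (0.0926) and -2.03 without ACT_IL21 replicate 2 (0.112). A RefSeq table of the same build lists Trbv29 as a V segment pseudogene, whereas GENCODE M21 lists it as a functional V gene.

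Trbv13-2, which encodes Vβ8.2, was the most used beta segment, with a mean usage of 15.5% over the 6 libraries. Usage was 12.2% and 12.7% in N, 21.8% and 16.5% in ACT, and 16.2% and 13.4% in ACT_IL21. The ACT libraries were above all others, yet ACT replicate 2 exceeded ACT_IL21 replicate 1 by little, and the difference from N did not pass the threshold (log2 fold change 0.60 ± 0.19 SE, limma adjusted p = 0.127). In TPM its pools overlapped, with 89.7 and 85.6 in N, 131 and 89.2 in ACT and 123 and 89.9 in ACT_IL21. The Trbv13 family as a whole took 19.5% and 19.6% of the beta chain in N, 29.6% and 24.7% in ACT, and 20.0% and 20.0% in ACT_IL21. As a family its log2 fold change in ACT over N was 0.47 (limma adjusted p = 0.135).

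Trbv1, which encodes Vβ2, gave no such separation. Its usage was 9.67% and 8.45% in N, 15.5% and 7.16% in ACT, and 7.67% and 9.51% in ACT_IL21. ACT replicate 1 was the highest library and ACT replicate 2 the lowest, so the pools overlapped (ACT against N, log2 fold change 0.22, limma adjusted p = 0.799, and -0.33 without ACT replicate 1). The beta segments known from MAIT cells also overlapped between N and ACT. Trbv19 was at 4.15% and 5.47% in N, 1.92% and 4.39% in ACT, and 2.82% and 3.47% in ACT_IL21. Trbv13-3 was at 4.49% and 4.66% in N, 3.69% and 5.26% in ACT, and 2.58% and 2.33% in ACT_IL21, where both libraries lay below all others (ACT_IL21 against N, log2 fold change -0.86, limma adjusted p = 0.111). Trav1, their alpha partner, had low usage, at 0.348% and 0.437% in N, 0.769% and 0.907% in ACT, and 0.337% and 0.375% in ACT_IL21. Both ACT libraries were above the rest, and the difference from N did not pass (log2 fold change 0.98 ± 0.34 SE, limma adjusted p = 0.171). That usage is a share of an alpha total without Trav11 and Trav11d, which was lowest in ACT. On TPM Trav1 was at 5.72 and 6.49 in N, 8.11 and 8.46 in ACT, and 6.98 and 7.87 in ACT_IL21. Its log2 fold change on TPM in ACT against N was 0.39 (limma adjusted p = 0.623).

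Several abundant beta segments had lower usage in ACT without overlap. Trbv3 was at 13.6% and 9.24% in N, 7.59% and 6.39% in ACT, and 9.39% and 10.3% in ACT_IL21. Trbv5 was at 5.96% and 6.78%, 3.89% and 4.58%, and 7.31% and 6.52%, and Trbv16 at 4.45% and 4.62%, 3.13% and 3.04%, and 4.98% and 4.91%, in the same order. None of them passed the threshold against N (limma adjusted p of 0.148, 0.175 and 0.218). Shares of a fixed total are not independent, so a segment that takes more of the chain lowers the shares of the others. Its part in these falls was not tested. On TPM, which includes the lower beta total of ACT, Trbv3, Trbv5 and Trbv16 were also below N without overlap. Their log2 fold changes were -0.97, -0.87 and -0.83 (limma adjusted p of 0.0733, 0.0518 and 0.0758). Of 21 tested Trbv segments, 4 were higher and 5 lower in usage in ACT than in N without overlap, beside 25.3% and 21.7% of all genes tested (47.0% in either direction).

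In ACT_IL21 against N the beta segments with the largest rises in mean usage without overlap were Trbv13-2, described above (log2 fold change 0.24, limma adjusted p = 0.571), Trbv12-2 and Trbv26, and none passed. Trbv12-2 was at 5.77% and 5.08% in N, 5.89% and 7.37% in ACT, and 8.19% and 7.59% in ACT_IL21, where both libraries were the highest (ACT_IL21 against N, log2 fold change 0.53, limma adjusted p = 0.210). Trbv20 was at 3.56% and 8.96%, 4.89% and 3.35%, and 10.5% and 8.47%, and its spread in N reached into the ACT_IL21 range. Trbv26 was at 2.33% and 2.999% in N and 3.30% and 3.87% in ACT_IL21, while its ACT libraries, at 1.36% and 5.17%, enclosed both pools. Trbv2 was at 7.72% and 11.6% in N, 6.32% and 12.3% in ACT, and 6.72% and 6.44% in ACT_IL21, with ACT_IL21 below N and inside the ACT range. Trbv15, the remaining segment among the 8 most used, overlapped in all 3 pools, at 6.41% and 5.58%, 4.41% and 6.60%, and 5.13% and 6.08%. The segments not named here stayed at or below 5.70% of the beta chain in each library.

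**Figure D2:**
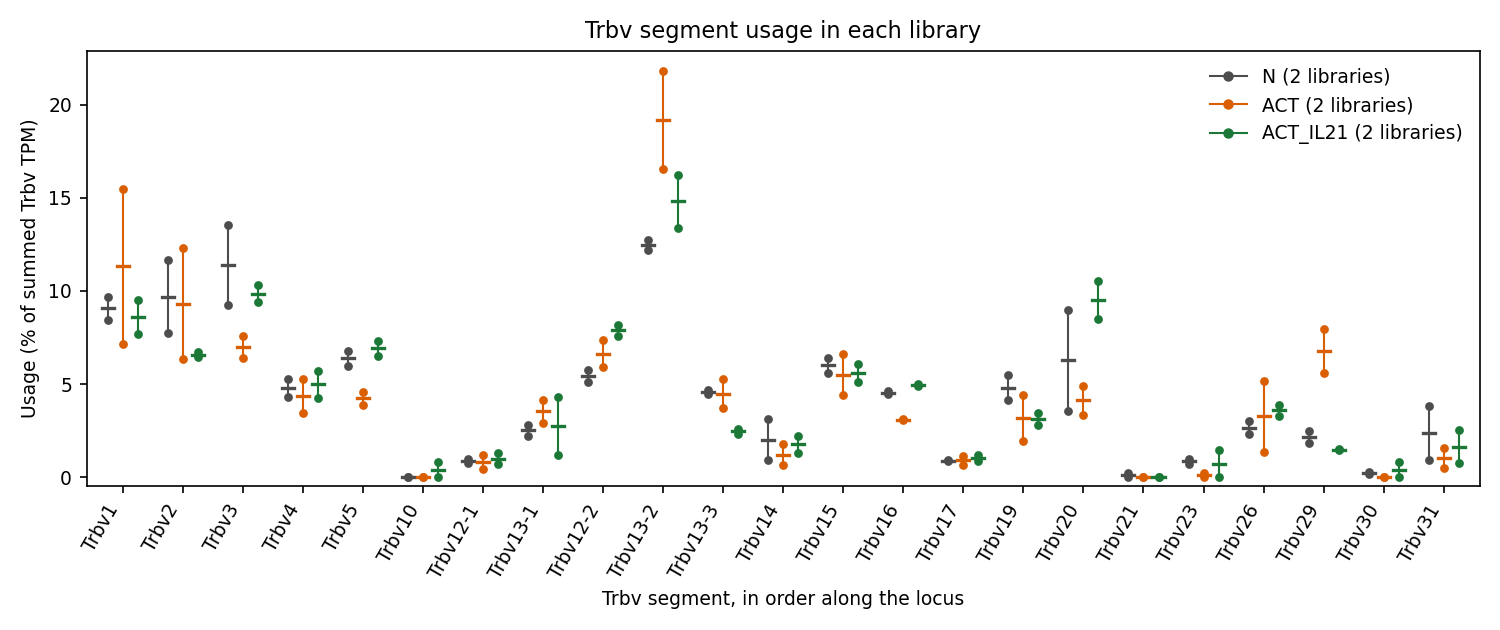
Usage of each Trbv segment (y axis, percent of summed Trbv TPM) in order along the locus (x axis), with 1 point per library, a vertical line for the range and a short horizontal line for the mean of 2. Trbv29 in ACT (7.94% and 5.61%) stands above both other pools, and Trbv13-2 has the highest mean usage (15.5%).

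Alpha usage was spread over many segments. The most used was Trav9-4, with a mean of 5.52% over the 6 libraries: 5.23% and 4.88% in N, 4.97% and 5.80% in ACT, and 5.98% and 6.25% in ACT_IL21. Trav14-3 followed at 4.61% and 4.45%, 4.14% and 5.48%, and 3.72% and 5.63%, then Trav12-2 at 4.19% and 3.95%, 4.37% and 2.55%, and 7.14% and 3.77%, and Trav7-4 at 4.04% and 4.40%, 3.52% and 4.42%, and 3.62% and 4.01%. In each library Trav9-4 was above Trav14-3, and Trav14-3 above Trav7-4, in places by little. The place of Trav12-2 among them is not resolved, since its library range spans theirs. Trav14d-1 (mean 3.54%), Trav14-2 (3.53%), Trav7-2 (2.93%) and Trav14d-3-dv8 (2.66%) completed the 8 most used. Trav14n-1, whose transcript is identical to that of Trav14d-1 in GENCODE M21, had a mean of 0.513%. The place of Trav14d-1 therefore depends on how reads of these copies were divided. Trav14d-3-dv8 ranged from 1.51% to 4.78% within the ACT pool alone.

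In ACT against N on TPM, 7 of 118 tested segments were lower and 0 were higher by limma (5.93%, beside 5.58% of all 13311 genes tested in either direction, of which 1.43% were lower and 4.15% higher). The 7 were Trav6-6, Trav14-2, Trav14d-2, Trav14n-2, Trav7-4, Trav7d-4 and Trav9-1. Trav14-2 was at 71.2 and 66.0 TPM in N and 28.6 and 13.9 in ACT, with the ACT libraries lowest, and fell by 1.73 ± 0.36 on the log2 scale (SE, limma adjusted p = 0.0350). Trav14d-2 and Trav14n-2 were listed with the same values, 19.5 and 20.2 in N and 5.68 and 6.38 in ACT, and count as 1 measurement that fell by 1.57 ± 0.29 (SE, limma adjusted p = 0.0193). Trav9-1 was at 50.9 and 48.9 in N and 23.7 and 17.2 in ACT (-1.26 ± 0.25 SE, limma adjusted p = 0.0276). Trav7d-4 was at 30.03 and 29.4 in N and 13.5 and 8.84 in ACT (-1.36, limma adjusted p = 0.0241), and Trav7-4 at 66.3 and 65.4 in N and 37.2 and 41.2 in ACT (-0.74, limma adjusted p = 0.0498). Summed with copies, the Trav9-1 group was at 84.2 and 80.4 in N and 37.1 and 37.8 in ACT (-1.12, limma adjusted p = 0.0134). The Trav7-4 group, which holds Trav7d-4, was at 114 and 124 in N and 71.4 and 75.8 in ACT (-0.68, limma adjusted p = 0.0372).

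These TPM values include the lower alpha total of ACT. Without overlap, 6 segments lay higher and 51 lower in ACT (beside 25.2% and 21.9% of all genes). Across the 97 tested Trav segments the median log2 fold change on TPM was -0.56, with 77 below 0, beside a median of 0.02 over all genes tested, and across the 21 Trbv segments it was -0.45, with 18 below 0. On usage the medians were -5e-04 for Trav and -0.16 for Trbv. On that scale 2 of 118 segments passed in ACT against N (1.69%, beside 5.54% of all genes): Trbv29 was higher (beside 4.16% of all genes higher) and Trav6-6 lower (beside 1.37% lower). Usage of Trav14-2 was 4.33% and 4.45% in N, 2.71% and 1.49% in ACT, and 5.23% and 2.94% in ACT_IL21, lower in ACT than in all others (ACT against N, -1.10 ± 0.34 SE, limma adjusted p = 0.123). Trav9-1 was at 3.10% and 3.29% in N, 2.24% and 1.84% in ACT, and 2.60% and 1.80% in ACT_IL21 (-0.64, limma adjusted p = 0.199). On usage Trav7-4 and Trav7d-4 gave limma adjusted p of 0.853 and 0.138.

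The segment counts moved when an N library was left out, and the number of all genes past the threshold fell as well, on both scales. Without N replicate 1, 0 segments passed on TPM and 0 on usage, and without N replicate 2, 1 passed on each (Trav6-6). Without ACT replicate 1, 9 passed on TPM and 4 on usage. With Trav11 and Trav11d counted in the alpha total, 7 segments passed on usage in place of 2.

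The largest rises of alpha usage in ACT among segments without overlap did not pass. Trav16n was at 0.816% and 0.824% in N, 1.63% and 3.49% in ACT, and 2.23% and 1.37% in ACT_IL21 (ACT against N, log2 fold change 1.47 ± 0.39 SE, limma adjusted p = 0.0759). Trav7-3 was at 1.15% and 0.707%, 1.99% and 1.83%, and 1.69% and 1.44% (1.03 ± 0.29, 0.0901), and Trav7d-3 at 0.493% and 0.141%, 0.749% and 2.03%, and 0.685% and 0.981% (1.95 ± 0.60, 0.120). For each of these 3 segments the N libraries were the lowest on usage. On TPM their log2 fold changes in ACT against N were 0.84, 0.40 and 1.33 (limma adjusted p of 0.265, 0.578 and 0.287). When copies were summed, an alternative chosen after the values were seen, the Trav7-3 group passed on usage in ACT against N. It was at 1.64% and 0.849% in N and 2.74% and 3.86% in ACT. On TPM that group, at 27.0 and 12.6 in N and 28.95 and 36.0 in ACT, did not pass. Trav5-4, at 2.27% and 3.31% in N, 1.07% and 2.26% in ACT, and 1.03% and 1.94% in ACT_IL21, was among the largest drops in both other pools (-0.79, limma adjusted p = 0.378 in ACT). Its ACT replicate 2, at 2.26%, lay just under N replicate 1, at 2.27%. On usage, 53 of 118 tested segments did not overlap between ACT and N, 25 higher and 28 lower (44.9%, beside 47.0% of all genes, 25.3% higher and 21.7% lower).

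Trav6-6 passed on both scales, and its copies qualify the call. It was listed at 24.5 and 5.51 TPM in N, 0 and 0 in ACT, and 26.7 and 20.7 in ACT_IL21, so no fold against ACT is given (limma adjusted p on usage, 0.0121 for ACT against N and 0.0155 for ACT_IL21 against ACT). Trav6d-6, whose transcript is identical in GENCODE M21, was at 31.0 and 30.1 TPM in N, 31.6 and 25.3 in ACT, and 31.9 and 27.4 in ACT_IL21. Trav6n-6 was at 5.91 and 4.53, 8.76 and 4.52, and 3.75 and 8.74. The 3 copies together took 3.73% and 2.71% of the alpha chain in N, 3.83% and 3.199% in ACT, and 3.01% and 2.71% in ACT_IL21. That sum overlapped between N and ACT, and its log2 fold change on usage was 0.14 (limma adjusted p = 0.812) for ACT against N and -0.29 (0.602) for ACT_IL21 against ACT. The sum over copies was an alternative chosen after the values were seen. The Trav6-6 call for ACT against N was also lost without N replicate 1 (limma adjusted p = 0.0786 on usage), and that for ACT_IL21 against ACT without ACT_IL21 replicate 1 (0.132) or replicate 2 (0.112).

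**Figure D3:**
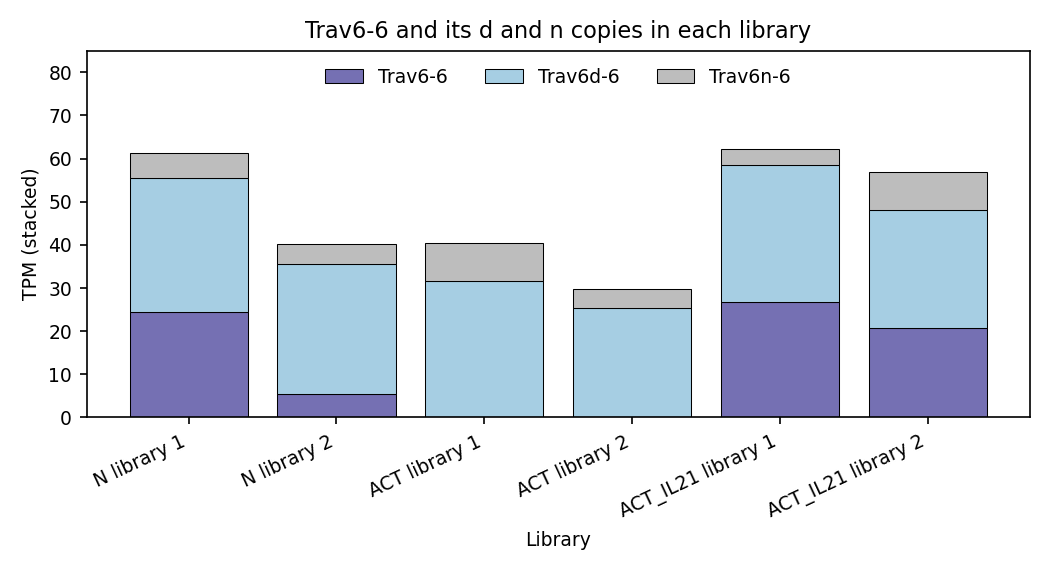
Stacked TPM (y axis) of Trav6-6, Trav6d-6 and Trav6n-6 in each of the 6 libraries (x axis). Trav6-6 is listed at 0 in both ACT libraries, while Trav6d-6 stays between 25.3 and 31.9 TPM throughout.

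The copies of Trav14-2 gave another pattern. Trav14-2, Trav14d-2 and Trav14n-2 together took 6.70% and 7.18% of the alpha chain in N, 3.78% and 2.86% in ACT, and 7.98% and 4.96% in ACT_IL21. The ACT libraries were below all others in the sum as in the single segments. On TPM the group was at 110 and 107 in N, 39.9 and 26.7 in ACT, and 165 and 104 in ACT_IL21. It passed on TPM in ACT against N (-1.70, limma adjusted p = 0.0104), a value that includes the lower alpha total of ACT. On usage the group did not pass in that comparison.

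In ACT_IL21 against N, a comparison that shares the N libraries with the one before, 0 of 118 segments passed limma on usage (beside 5.07% of all genes, 3.82% higher and 1.25% lower), and 9 had an unadjusted p under 0.05 (7.63%, beside 18.6% of all genes). Libraries did not overlap for 40 segments, 21 higher and 19 lower (33.9%, beside 51.4% of all genes, 31.3% higher and 20.0% lower). On TPM 1 segment passed, in the lower direction (0.847%, beside 5.09% of all genes either way, 3.82% higher and 1.26% lower). Also on TPM, 43 segments lay higher and 9 lower without overlap (beside 31.5% and 19.9% of all genes, 51.4% in all). It was Trav15-1-dv6-1, a segment that can also join the delta chain, at 9.73 and 8.15 TPM in N, 0.73 and 4.56 in ACT, and 0 and 0.94 in ACT_IL21. It fell by 2.83 ± 0.64 on the log2 scale (SE, limma adjusted p = 0.0471), and on usage its adjusted p was 0.0538. Summed with its copies, the group was at 17.3 and 11.8 TPM in N, 9.89 and 11.4 in ACT, and 2.22 and 9.85 in ACT_IL21, and the call was lost (-1.38, limma adjusted p = 0.236). The group that passed in its place was Trav16 with its copies, higher in ACT_IL21, at 35.9 and 30.2 TPM in N and 80.0 and 66.8 in ACT_IL21. The single-segment call was also lost on leaving out each of the 4 libraries compared, with limma adjusted p of 0.233 without N replicate 1, 0.231 without N replicate 2, 0.230 without ACT_IL21 replicate 1 and 0.118 without ACT_IL21 replicate 2. Without ACT replicate 1 or ACT replicate 2, which are not part of this contrast, 3 segments passed on TPM and 2 on usage.

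Usage of Trav9d-1 also came near the threshold in ACT_IL21 against N. It was at 1.75% and 1.96% in N, 1.06% and 1.69% in ACT, and 0.754% and 0.759% in ACT_IL21, with both ACT_IL21 libraries the lowest (-1.22 ± 0.29 SE, limma adjusted p = 0.0564). Trav14n-3 was at 1.79% and 3.57%, 1.56% and 1.66%, and 1.32% and 1.14% (-1.01, limma adjusted p = 0.142). In both segments the ACT_IL21 libraries lay below the N libraries. Among the rises, Trav9-4 had the ACT_IL21 libraries highest (0.27, limma adjusted p = 0.433).

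In ACT_IL21 against ACT on TPM, 9 segments were higher and 1 lower of 118 tested (8.47%, beside 1.95% of all genes either way, 0.796% higher and 1.15% lower). The 9 were Trav6-6, Trav6-7-dv9, Trav7-4, Trav7d-4, Trav7d-5, Trav9-4, Trav14-2, Trav14d-2 and Trav14n-2, and the lower one was Trbv29. Trav9-4 was at 52.5 and 54.1 TPM in ACT and 124 and 131 in ACT_IL21, beside 85.9 and 72.4 in N, and rose by 1.24 ± 0.16 on the log2 scale (SE, limma adjusted p = 0.0121). The ACT_IL21 libraries were its highest and the ACT libraries its lowest. Trav6-7-dv9 was at 16.4 and 9.24 in ACT, 41.5 and 45.0 in ACT_IL21 and 27.0 and 22.1 in N (1.73 ± 0.30, limma adjusted p = 0.0305). Summed with Trav6d-7 and Trav6n-7 it was at 46.6 and 15.8 in ACT and 83.7 and 77.4 in ACT_IL21, and the call was lost (1.53, limma adjusted p = 0.135). Trav7d-5 was at 11.3 and 14.4 in ACT, 53.0 and 32.9 in ACT_IL21 and 23.1 and 22.6 in N (1.64 ± 0.29, limma adjusted p = 0.0327).

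Of the 7 segments that were lower in ACT than in N, 6 were also called here, and both comparisons share the ACT libraries. The exception was Trav9-1, at 1.12 (limma adjusted p = 0.0760). Trav14-2 gave 1.98 (limma adjusted p = 0.0389), Trav14d-2 and Trav14n-2 1.87 (0.0208), Trav7d-4 1.67 (0.0227) and Trav7-4 1.003 (0.0287). With copies summed, limma gave 1.97 for the Trav14-2 group (adjusted p = 0.0131), 0.90 for the Trav7-4 group (0.0252) and 1.08 for the Trav9-4 group (0.0333). The Trav9-4 group was at 84.8 and 65.0 TPM in ACT and 164 and 153 in ACT_IL21, and the Trav7-4 group at 139 and 138 in ACT_IL21. The median log2 fold change on TPM was 0.94 over the 97 tested Trav segments, 84 of them above 0, and 0.57 over the 21 Trbv segments, beside 0.08 over all genes. On usage the medians were -0.05 and 0.25. On usage 2 segments passed (1.69%, beside 1.84% of all genes), Trav6-6 higher (beside 0.714% higher) and Trbv29 lower (beside 1.13% lower), and 23 had an unadjusted p under 0.05 (19.5%, beside 14.7%). Libraries did not overlap on usage for 44 segments, 23 higher and 21 lower (37.3%, beside 41.6% of all genes, 24.2% higher and 17.4% lower). On TPM 64 were higher and 5 lower without overlap (beside 24.5% and 17.3% of all genes, 41.8% in all).

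Without ACT_IL21 replicate 1 or ACT_IL21 replicate 2, few or no segments passed on TPM and none on usage. Fewer of all genes tested passed too. Without N replicate 1 or N replicate 2, 2 passed on TPM (Trav6-6 and Trav9-4) and 2 on usage. The Trav9-4 value was 1.28 without ACT_IL21 replicate 1 (limma adjusted p = 0.0893) and 1.20 without ACT_IL21 replicate 2 (0.116).

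Among alpha segments with higher usage in ACT than in ACT_IL21, none passed. Trav6d-6 was at 2.998% and 2.71% in ACT and 1.54% and 1.31% in ACT_IL21, beside 1.89% and 2.03% in N (-0.98 ± 0.21 SE, limma adjusted p = 0.0705). Trav7n-4 was at 1.96% and 2.76% in ACT, 1.26% and 0.837% in ACT_IL21 and 1.08% and 1.95% in N (-1.13, limma adjusted p = 0.193). Trav3d-3 was at 0.637% and 1.37% in ACT, 0.0319% and 0.252% in ACT_IL21 and 0.268% and 0.327% in N (-2.52, limma adjusted p = 0.103). On usage the ACT libraries were above both ACT_IL21 libraries in all 3. On TPM, which includes the lower alpha total of ACT, Trav6d-6 and Trav7n-4 changed little. Their log2 fold changes were 0.06 and -0.10 (limma adjusted p of 0.932 and 0.920), and that of Trav3d-3 was -1.67 (0.284).

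By family, alpha usage was led by Trav14 in each library. The Trav14 family of 9 segments took 21.6% and 24.5% in N, 16.8% and 20.0% in ACT, and 20.5% and 20.1% in ACT_IL21, with the higher ACT library just under the lower ACT_IL21 library. The Trav7 family took 14.7% and 15.3%, 13.8% and 17.0%, and 14.8% and 16.6%, and the Trav9 family 15.5% and 14.4%, 16.3% and 14.2%, and 14.96% and 13.2%, both with overlap. The Trav12 family took 9.40% and 9.88% in N, 11.04% and 11.5% in ACT, and 13.1% and 10.9% in ACT_IL21, with the N libraries lowest. Trav6, the family with most segments (15), took 11.1% and 11.1% in N, 13.0% and 7.19% in ACT, and 11.2% and 11.8% in ACT_IL21. The small Trav3 family was at 2.25% and 1.96%, 3.46% and 4.75%, and 1.98% and 2.39%, highest in ACT, and Trav16 at 2.19% and 2.03%, 3.01% and 5.36%, and 3.86% and 3.18%, lowest in N. When families replaced segments in the fit, Trbv29 was the single one past the threshold on usage in ACT against N and in ACT_IL21 against ACT.

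**Figure D4:**
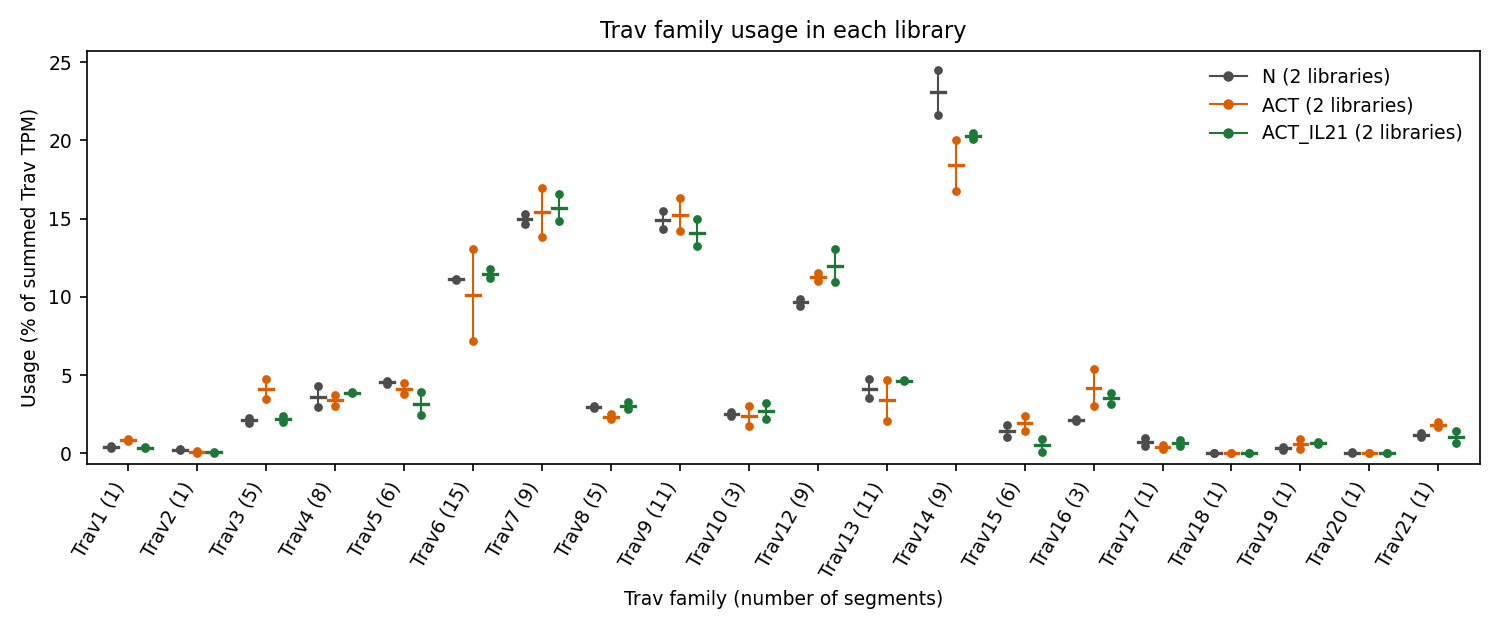
Usage of the 20 Trav families (y axis, percent of summed Trav TPM, x axis labels giving the number of segments), with 1 point per library, the range and the mean of 2. Trav14 has the highest usage, and its ACT libraries (16.8% and 20.0%) lie below those of N and ACT_IL21.

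By position in the locus, ACT differed from the other pools by a few percentage points. The third of the Trav segments nearest the J segments took 53.1% and 49.7% of usage in N, 48.2% and 45.2% in ACT, and 53.9% and 54.4% in ACT_IL21. The ACT libraries were the lowest. The third farthest from the J segments took 24.3% and 24.3%, 25.3% and 26.3%, and 23.6% and 21.9%, highest in ACT. Segments without a letter took 60.3% and 56.4% in N, 56.7% and 52.8% in ACT, and 61.1% and 62.9% in ACT_IL21, those with a d 25.6% and 25.8%, 24.8% and 28.9%, and 23.4% and 23.3%, and those with an n 14.1% and 17.7%, 18.5% and 18.3%, and 15.5% and 13.8%. By letter, N overlapped ACT for segments without a letter and with a d, and ACT_IL21 for segments with an n. These shares were not tested, and they depend on how reads of copies were divided. Segments with a dv took between 7.12% and 10.9% in each library, and annotated Trav pseudogenes between 0.905% and 1.4999%.

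The breadth of usage was given by the effective number of segments, the exponential of the Shannon entropy, which is the number of equally used segments with the same evenness. For Trav it was 61.5 and 58.6 in N, 64.4 and 57.2 in ACT, and 58.3 and 61.2 in ACT_IL21, with means ± SD of 60.1 ± 2.08, 60.8 ± 5.08 and 59.7 ± 2.03 (n = 2). The differences between pools were smaller than the spread within ACT. With Trav11 and Trav11d added, the ACT libraries were at 26.6 and 30.3, and N and ACT_IL21 were at 61.1 ± 2.66 and 61.4 ± 2.02 (SD, n = 2). For Trbv it was 16.1 and 15.6 in N, 13.1 and 14.9 in ACT, and 15.3 and 15.6 in ACT_IL21, with both ACT libraries lowest.

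The distance between 2 libraries was taken as the percentage of usage that would have to move from some segments to others to make them equal. For Trav the 2 libraries of a pool differed by 13.3% in N, 25.2% in ACT and 21.0% in ACT_IL21. The 12 pairs from different pools differed by 16.9% to 28.1% (median 21.3%), a range that holds both the ACT and the ACT_IL21 within-pool values. For Trbv the within-pool distances were 14.1% in N, 21.8% in ACT and 11.5% in ACT_IL21. Between pools they were 16.2% to 25.4% for ACT and N, 11.9% to 17.9% for ACT_IL21 and N, and 19.7% to 24.1% for ACT_IL21 and ACT. The distance of ACT_IL21 from N on the beta chain was thus close to that between N libraries, and distances to ACT were of the size seen between the 2 ACT libraries. Across segments, Pearson's correlation of usage between libraries ranged from 0.724 to 0.942 for Trav and from 0.769 to 0.946 for Trbv, as a description over segments that share each library.

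**Figure D5:**
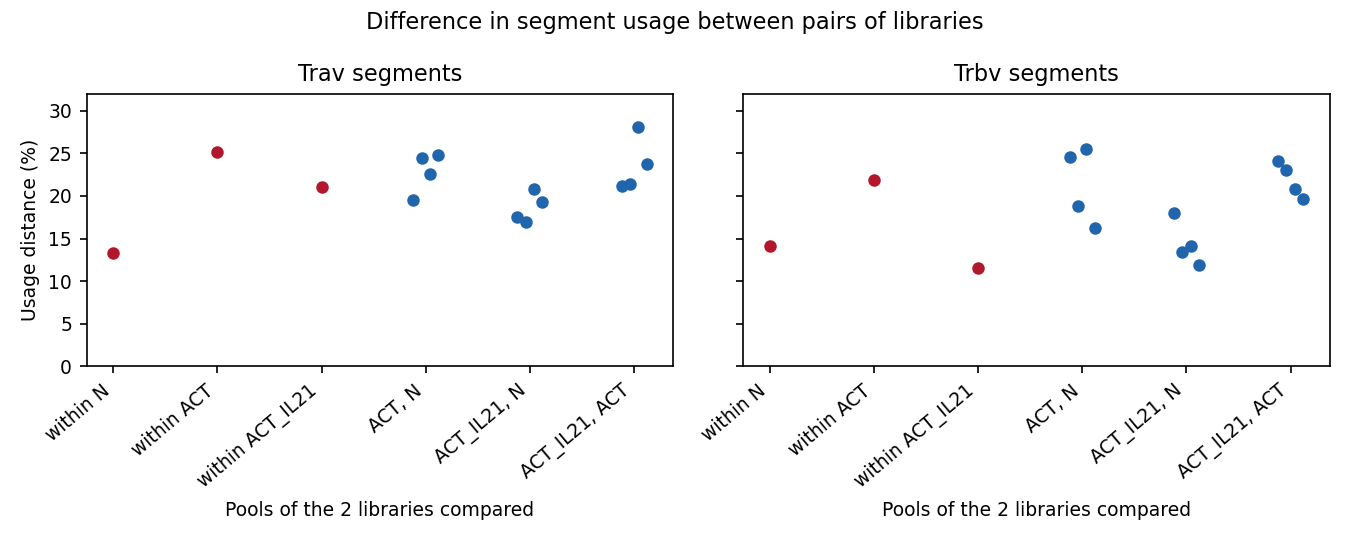
Usage distance in percent (y axis) between pairs of libraries, for Trav (left) and Trbv (right), by the pools of the 2 libraries (x axis). Red points are pairs within a pool and blue points pairs from different pools; the ACT libraries differ from each other by 25.2% for Trav and 21.8% for Trbv, within the range of the blue points.

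Other genes of the receptor and of its assembly were taken from a list of 15, of which 12 were in the table used here and 9 were tested. On TPM in ACT against N, 0 were higher and 2 lower: Cd247, the zeta signalling chain (-0.75, limma adjusted p = 0.0221), and Dntt, the terminal transferase that adds bases at V, D and J joints (-3.10, limma adjusted p = 0.00858). Dntt was at 5.84 and 10.7 TPM in N, 0.09 and 0 in ACT, and 0 and 0.12 in ACT_IL21. In ACT_IL21 against N, Cd4 was higher (0.71, limma adjusted p = 0.0301) and Dntt lower (-3.08, limma adjusted p = 0.0101). In ACT_IL21 against ACT, Cd247 (0.94, limma adjusted p = 0.0205) and Cd4 (1.13, limma adjusted p = 0.0103) were higher. Trac did not pass (0.54, limma adjusted p = 0.119, in ACT against N), nor did Trbc1 or Trbc2 in any comparison. Ptcra, the partner of the beta chain in thymic precursors, and Rag2 were listed at 0 in all 6 libraries.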

How the data were processed

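RNA from 6 libraries was measured. Qiagen RNeasy columns and NuGEN Ovation amplification of polyadenylated RNA were used, per the labels' protocols. The authors deposited gene-level TPM, 1 column per library. The submitters' processing notes name Trimmomatic, Bowtie, RSEM and GRCm38. Versions, annotation release, strand setting and read number are not stated in those sources. TPM keeps no depth, so no counting interval is given. Repeated symbols were summed. Differences were tested with limma 3.58.1 (R 4.3.3) on log2(TPM + 1), over 13311 genes reaching 1 TPM in 2 or more libraries. All 6 libraries entered 1 fit with a pool term, an intensity trend, 3 residual and 4.841 prior degrees of freedom, and two-sided p-values adjusted by Benjamini-Hochberg over all genes per comparison, at a threshold of 0.05. Fold changes are on that log2 scale, which understates low genes. For usage, segment rows were first scaled to a fixed chain total per library (prior degrees of freedom 4.83). The fit was tested on simulated data. Named segments were the 8 most used per chain, those past the threshold on usage, the 3 largest rises and falls without overlap, and fixed innate-like segments; those past the threshold on TPM, and the copies of named segments, were named after their values were seen. The members and lists were chosen with earlier results of these data known. Alternatives covered pseudocounts, filters, scaling, the trend, left-out libraries, families, copy groups and Trav11 with Trav11d in the alpha total.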

Additional observations from a re-analysis of the deposited data

How the results depend on the processing

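Depth is unknown for TPM, and 2 libraries a pool leave few degrees of freedom, so counts of segments past the threshold moved with many settings. Counts over all genes tested moved as well. On TPM, ACT against N had 743 and gave 469 with no filter, 577 with no trend and 417 with only the 4 libraries. In that order, ACT_IL21 against N had 677 and gave 410, 499 and 715. ACT_IL21 against ACT had 259 and gave 124, 180 and 92. Leaving out a library of the compared pools lowered the count over all genes in each comparison. The values below count segments past the limma threshold. On TPM, ACT against N had 7 and gave 4 with copies summed, 2 with no filter, 3 with no intensity trend and 1 with only the 4 libraries compared. ACT_IL21 against N had 1 and gave 2 at a minimum of 5 TPM, 0 with no filter, 0 with no trend, 2 with only the 4 libraries and 0 with a pseudocount of 0.1. ACT_IL21 against ACT had 10 and gave 1 with no filter, 3 with no trend and 2 with only the 4 libraries. On usage, ACT against N had 2 and gave 7 with Trav11 and Trav11d in the total, 1 with no filter, 0 with only the 4 libraries, 1 with a pseudocount of 5 and 1 with families. ACT_IL21 against N had 0 and gave 1 with Trav11 and Trav11d in the total, 1 at a minimum of 5 TPM and 2 with only the 4 libraries. ACT_IL21 against ACT had 2 and gave 6 with Trav11 and Trav11d in the total, 1 with copies summed, 1 with no filter, 1 with only the 4 libraries and 1 with families. The cause of these changes was not tested. Summing copies was chosen after seeing the data. It changed which segments passed even where the count held. ACT_IL21 against N on TPM kept a count of 1 but shared 0 with the single segments (Trav16, higher, in place of Trav15-1-dv6-1, lower). ACT_IL21 against ACT on TPM gave 9 groups. They held the single segments called there except Trav6-6 and Trav6-7-dv9, and the groups Trav12-2, Trav14-1, Trav4-4 and Trav8-2 were new. ACT against N on usage gave 2 and shared 1. Leaving out 1 library at a time gave 0 to 9, 0 to 3 and 0 to 8 on TPM, and 0 to 4, 0 to 2 and 0 to 3 on usage, in the same order of comparisons.

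Same-numbered libraries share only a number: the correlation of their deviations was 0.21 for N and ACT, -0.004 for N and ACT_IL21 and 8e-04 for ACT and ACT_IL21. A fit with the replicate number as a block gave 8, 1 and 12 segments on TPM and 3, 2 and 4 on usage.

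The effective number of Trav segments became 55.5, 55.5 and 54.4 in N, ACT and ACT_IL21 at a minimum of 5 TPM, 10.3, 11.003 and 10.3 with families, and 28.4, 29.3 and 29.2 with copies summed; with Trav11 and Trav11d it became 28.4 in ACT. For Trbv it became 13.0, 10.97 and 13.0 with families and 15.1 in ACT_IL21 at a minimum of 5 TPM. The Trav distance of ACT from N, of ACT_IL21 from N and of ACT_IL21 from ACT became 11.2%, 7.37% and 9.85% with families and 17.2%, 13.8% and 17.2% with copies summed. With Trav11 and Trav11d it became 46.2% for ACT and N and 45.6% for ACT_IL21 and ACT, and the Trbv distance of ACT_IL21 from N became 11.5% with families. Fewer units are counted with families, copies summed or a stricter minimum.

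Directions turned in these usage values, none of them past the threshold once turned. Trav6-6 with its copies gave 0.14 in ACT against N and -0.29 in ACT_IL21 against ACT. With the Trbv13 family in its place, Trbv13-3 gave 0.47 in ACT against N and 0.035 in ACT_IL21 against N. The others turned when 1 library was left out. In ACT against N, Trbv1 ranged from -0.33 (without ACT replicate 1) to 0.77 (without ACT replicate 2) and Trbv13-3 from -0.30 (without ACT replicate 2) to 0.20 (without ACT replicate 1). In ACT_IL21 against N, Trav1 ranged from -0.26 (without N replicate 1) to 0.025 (without N replicate 2), and Trbv1 from -0.23 (without ACT_IL21 replicate 2) to 0.072 (without ACT_IL21 replicate 1). In ACT_IL21 against ACT, Trbv1 ranged from -0.85 (without ACT replicate 2) to 0.25 (without ACT replicate 1), and Trbv19 from -0.47 (without ACT replicate 1) to 0.67 (without ACT replicate 2). Of the other log2 fold changes of segments, on TPM and usage, 438 kept their direction and side of the threshold. A further 140 kept their direction but lost the call. The counts, effective numbers and distances are not part of these tallies. Median-ratio scaling left 8, 1 and 10 segments on TPM and moved the median of all genes by less than 0.1 on the log2 scale.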
